A study of Rattus norvegicus with 3 samples.

Results

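The genes described here are 10 members of the LIF, gp130 and STAT3 signalling pathway: the ligand Lif, the receptors Lifr, Il6st and Osmr, the kinases Jak1 and Jak2, the transcription factor Stat3, and the feedback inhibitors Socs1, Socs2 and Socs3. They were chosen by name, with earlier results of these data known. Every gene probe whose deposited gene name was one of these was taken. This gave 12 probes for the 10 genes, of 41012 probes and 35561 gene names on the array. Rat induced pluripotent stem cells of the line F65 (iPS F65) were untreated and had been kept on irradiated mouse embryonic fibroblasts, in Knockout DMEM with fetal bovine serum and serum replacer. Mix1 was RNA of adult rat cells in culture: bone marrow cells mixed with primary fibroblasts of the ear. Added LIF is not named in the labels' growth protocol of either group. F65 is 1 line. The labels do not say whether its 3 samples came from separate cultures, so p-values measure only the spread between these samples. Total RNA of each iPS F65 sample (Cy3) was hybridised against mix1 (Cy5) on 1 Agilent 2-colour array of 60-base probes, 3 arrays in all, with the same dye orientation each time. A dye effect therefore cannot be told apart from a difference between the groups.

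LIF is a cytokine of the interleukin 6 family. It binds its own receptor, the product of Lifr, which pairs with gp130, the shared signal-transducing chain encoded by Il6st. Oncostatin M can use a receptor of gp130 and the product of Osmr. Kinases of the JAK family, bound to the receptor tails, then phosphorylate STAT3, which enters the nucleus and switches on targets that include Socs3, whose product in turn blocks the receptor and its kinases. In mouse embryonic stem cells this pathway is known for holding cells in the naive, self-renewing state, and in fibroblasts and macrophages it is known for its part in inflammatory and acute-phase responses.

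Of the 10 genes, 9 were well above background on all 3 arrays in at least 1 channel and were tested. Lifr was higher in iPS F65 than in mix1. Il6st, Osmr, Jak1, Jak2, Socs1 and Socs3 were lower. Lif and Stat3 did not pass the call, which needed a Benjamini-Hochberg adjusted p under 0.05 in limma over all tested probes and a difference of at least 2-fold (1 on the log2 scale), and Socs2 was not well above background in either group. This is 1 gene of 9 higher (11.1%) and 6 of 9 lower (66.7%). Over the brightest probe of each of the 21805 gene names tested, 30.9% were called higher and 24.5% lower. Over all 25801 tested probes, the shares were 31.2% higher and 24.1% lower, and 24680 probes had an adjusted p under 0.05, so the 2-fold limit set most calls. The median log2 ratio of iPS F65 over mix1 was -1.17 over the 9 genes and 0.27 over all tested probes. The direction of the balance over all probes depended on background correction and scaling. Of all calls, 56.5% were higher in iPS F65 with the processed signals and 47.1% after each array was centred on its median. The share was 41.8% with normexp background correction, uneven backgrounds set to the array median, and loess. It was 54.2% with normexp on the backgrounds as given and loess, and 42% with loess and no background subtraction.

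Probes of Lifr, Osmr, Il6st, Stat3, Socs1 and Socs3 are shown as deposited, 5′ to 3′, since each ratio below is a measurement of that stretch of the transcript alone. For Stat3 the brighter probe, which represents the gene in the counts, is not shown. Each probe is 60 bases long, and positions are in the rat build rn3, which the file headers name. The annotation of that build was not used here, so exon and intron are not given. 
Lifr (chr2:56405287-56405346, plus strand): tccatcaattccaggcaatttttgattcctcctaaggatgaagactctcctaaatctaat
Osmr (chr2:56009432-56010176, minus strand): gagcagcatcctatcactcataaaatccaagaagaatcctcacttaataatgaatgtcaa
Il6st (chr2:43761506-43761565, plus strand): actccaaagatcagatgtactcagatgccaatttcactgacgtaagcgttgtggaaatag
Stat3, the probe that was called lower (chr10:89838189-89838539, minus strand): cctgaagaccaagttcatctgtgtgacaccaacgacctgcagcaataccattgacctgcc
Socs1 (chr10:4820384-4820443, plus strand): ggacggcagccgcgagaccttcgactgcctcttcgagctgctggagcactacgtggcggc
Socs3 (chr10:107973207-107973266, minus strand): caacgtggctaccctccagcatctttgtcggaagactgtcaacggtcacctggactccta
The deposited positions of the Osmr and Stat3 probes cover 745 and 351 bases of the genome, so these 60 bases were placed across a gap.

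**Figure D1:**
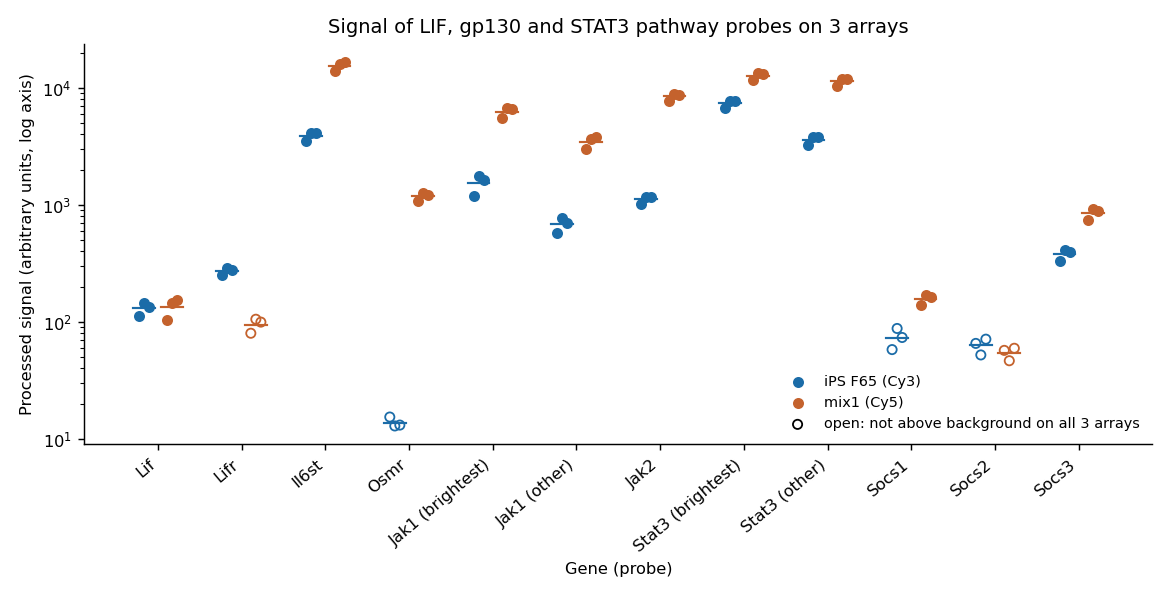
Processed signal (arbitrary units, log axis) of each probe on each of the 3 arrays, with iPS F65 (Cy3) left of mix1 (Cy5) and a line at each mean. Open points mark a channel that was not well above background on all 3 arrays, as for Osmr in iPS F65. Signals of different probes are not comparable with each other.

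The ligand Lif was measured near the low end of the array's range in both groups. Its processed signal, the software's background-subtracted and dye-normalised intensity in arbitrary units, was 112, 144 and 134 in iPS F65 samples 1 to 3, against 104, 145 and 154 in mix1 on the same arrays. The groups overlapped, and the log2 ratio was positive on 1 array and negative on the other two. The mean log2 ratio was -0.03 ± 0.15 (SD, n = 3 arrays; adjusted p = 0.671 in limma), with the sign turned to 0.05 when replicate 3 was left out. The probe lies at chr14:84909705-84909764 (rn3, plus strand).

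Lifr, which encodes the ligand-binding chain of the LIF receptor, was the member called higher. Its signal was 251, 287 and 279 in iPS F65, against 79.9, 105 and 99.5 in mix1. Every iPS F65 value lay above every mix1 value, and mix1 was well above background on 2 of the 3 arrays. The log2 ratio was 1.65, 1.45 and 1.49 (mean 1.53 ± 0.11 SD, n = 3, or 2.89-fold; adjusted p = 8.37e-05 in limma). The call rested on how background and dyes were treated: the log2 ratio was 0.83 with normexp and loess and 0.85 with loess alone, both positive but below the 2-fold limit, and 0.33 with normexp on the backgrounds as given (adjusted p = 0.241 in limma). After centring on the median of all probes it was 1.26 and passed.

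Il6st, the gene of the shared chain gp130, was lower in iPS F65 but was well above background in both groups. Its signal was 3537, 4072 and 4089 in iPS F65, against 13943, 15922 and 16574 in mix1. The groups were far apart and the ratio hardly moved between arrays. The log2 ratio was -1.98, -1.97 and -2.02 (mean -1.99 ± 0.03 SD, n = 3; adjusted p = 7.22e-06 in limma), a level 3.97-fold higher in mix1.

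Osmr, the gene of the oncostatin M receptor chain, was at background in iPS F65 and bright enough in mix1 to be called lower. Its signal was 15.4, 12.9 and 13.1 in iPS F65, on no array well above background, against 1087, 1262 and 1216 in mix1. The iPS F65 level is therefore only a bound, and Osmr was at least 18.0-fold lower in iPS F65 (fitted log2 ratio -6.43 ± 0.25 SD, n = 3; adjusted p = 1.98e-05 in limma). This bound sets the mean of the brighter channel against the lowest signal well above background on each array, or the dim probe's own signal where higher, after normalisation between channels, and it is open to dye bias. Like the bounds given below, it rests on the processed signals alone. The Osmr log2 ratio was -4.09 with normexp and loess and -3.99 with loess alone, both called lower. With normexp on the backgrounds as given it was -2.0 and its adjusted p in limma was 0.149. All of these are smaller differences than the bound. In bulk RNA, fewer cells that carry a transcript and less of it in each cell cannot be told apart, here and for every other gene.

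The ratios of Lifr and Il6st had opposite signs on every array. On the same array, the log2 ratio of Lifr exceeded that of Il6st by 3.63, 3.42 and 3.51 (mean 3.52 ± 0.11 SD, n = 3). No such difference is given for Osmr, whose iPS F65 signal was at background. The Lifr and Osmr probes lie 395 kb apart on chromosome 2 in rn3. The other two probes placed between them, both named by expressed sequence tags, were not well above background in either group. On chromosome 14, the probes of Osm, which encodes oncostatin M, and of Lif lie 30.8 kb apart with none between them. Osm was at least 1.42-fold lower in iPS F65, where its signal was at background on all 3 arrays, and Lif was not called.

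**Figure D2:**
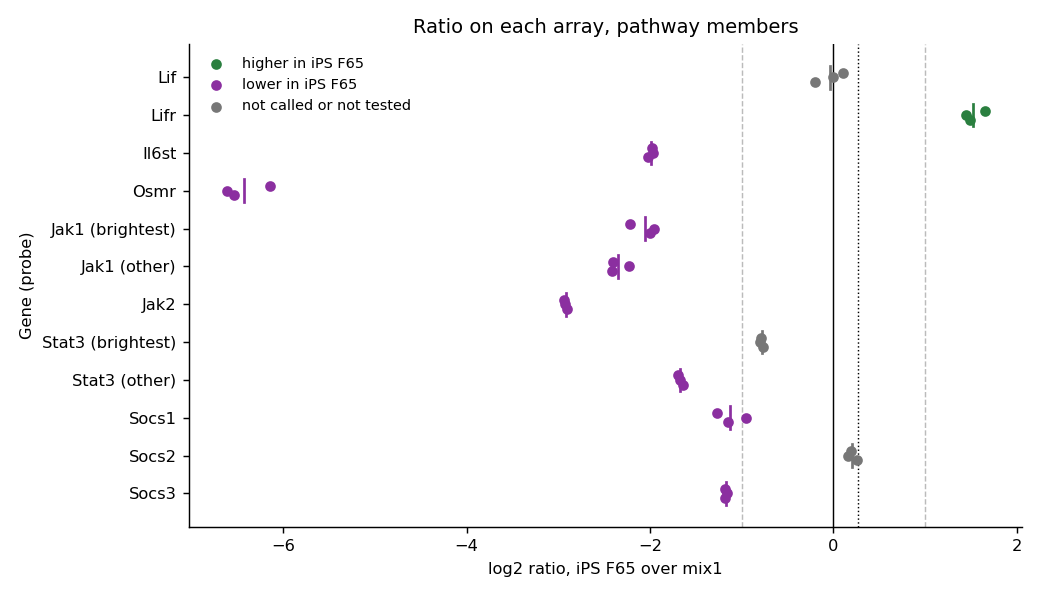
log2 ratio of iPS F65 over mix1 on each of the 3 arrays (points) with the mean (bar), for each member probe. Dashed lines mark the 2-fold limits and the dotted line the median of all tested probes at 0.27. Lifr alone lies right of the upper limit, and the ratios of Osmr lie furthest left, between -6.61 and -6.14, as fitted values against a signal at background.

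Both receptor-bound kinases were lower in iPS F65. Jak1 had 2 probes. The brighter (chr5:121814175-121815055, minus strand) gave 1181, 1756 and 1638 in iPS F65, against 5474, 6792 and 6536 in mix1. The deposited position of this probe covers 881 bases of the genome, so its 60 bases were placed across a gap. All iPS F65 values lay below all mix1 values, and sample 1 was the lowest in both channels. The mean log2 ratio was -2.05 ± 0.14 (SD, n = 3; adjusted p = 7.51e-05 in limma). The other Jak1 probe (chr5:121843608-121843667, minus strand) gave a mean log2 ratio of -2.35 ± 0.10 (SD, n = 3; adjusted p = 2.77e-05 in limma), so both probes were called in the same direction.

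Jak2 was spotted 10 times on each array. Its signal was 1017, 1169 and 1169 in iPS F65, against 7766, 8866 and 8745 in mix1. The groups did not come near each other, and the SD of the 10 repeated spots within an array was 0.024 to 0.041 on the log2 scale. The mean log2 ratio was -2.92 ± 0.02 (SD, n = 3; adjusted p = 5.48e-06 in limma), or 7.57-fold higher in mix1. The probe lies at chr1:233138702-233138761 (plus strand). A further probe downstream of it carries no gene name but is described in the deposited files as part of Jak2. It fell outside the naming rule, was looked at because of that description, and gave -3.06 ± 0.00 (SD, n = 3; adjusted p = 5.31e-06 in limma).

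Stat3, the transcription factor at the end of the kinase cascade, had a lower signal in iPS F65 on both of its probes, of which 1 passed the call. The brighter probe (chr10:89835515-89835574, minus strand), spotted 10 times, gave 6690, 7742 and 7744 in iPS F65, against 11566, 13420 and 13152 in mix1. The other, whose sequence is given above, gave 3219, 3764 and 3783 in iPS F65, against 10393, 11982 and 11806 in mix1. On both probes the groups did not overlap. The mean log2 ratio was -0.78 ± 0.02 on the brighter probe (SD, n = 3; adjusted p = 2.39e-05 in limma), short of the 2-fold limit, and -1.67 ± 0.02 on the other (SD, n = 3; adjusted p = 8.24e-06 in limma), which was called lower. The probes differed by -0.90, -0.88 and -0.88 on the 3 arrays, more than the spread between arrays of either. Since the brightest probe stands for a gene, Stat3 counts as not called. That probe passed as lower after median centring (-1.05), with normexp and loess (-1.16) and with loess without background subtraction (-1.16).

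The SOCS genes encode inhibitors that cytokine receptors induce through STAT factors and that shut the receptor complex down again. Socs3, the inhibitor that binds gp130 itself, had a signal of 328, 410 and 394 in iPS F65, against 743, 916 and 894 in mix1. The groups did not overlap and the ratio was nearly the same on each array: -1.18, -1.16 and -1.18. The mean was -1.17 ± 0.01 (SD, n = 3; adjusted p = 1.03e-05 in limma), or 2.26-fold higher in mix1. With normexp on the backgrounds as given it was -0.71 and not called.

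Socs1, an inhibitor of JAK kinase activity, was dimmer. Its signal was 57.9, 87.8 and 73.5 in iPS F65, against 139, 169 and 163 in mix1. The groups did not overlap, and iPS F65 was well above background on 2 of the 3 arrays. The log2 ratio was -1.26, -0.95 and -1.15 (mean -1.12 ± 0.16 SD, n = 3; adjusted p = 0.000573 in limma), just past the 2-fold limit. The ratio kept its sign but not its call with normexp and loess (-0.74), with loess alone (-0.72) and with normexp on the backgrounds as given (-0.29). Socs2, best known as an inhibitor of growth hormone signalling, gave 65.4, 52.1 and 71.1 in iPS F65 and 57.0, 46.5 and 59.5 in mix1. It was well above background on no array in either group, so it was not tested and no difference was detectable.

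**Figure D3:**
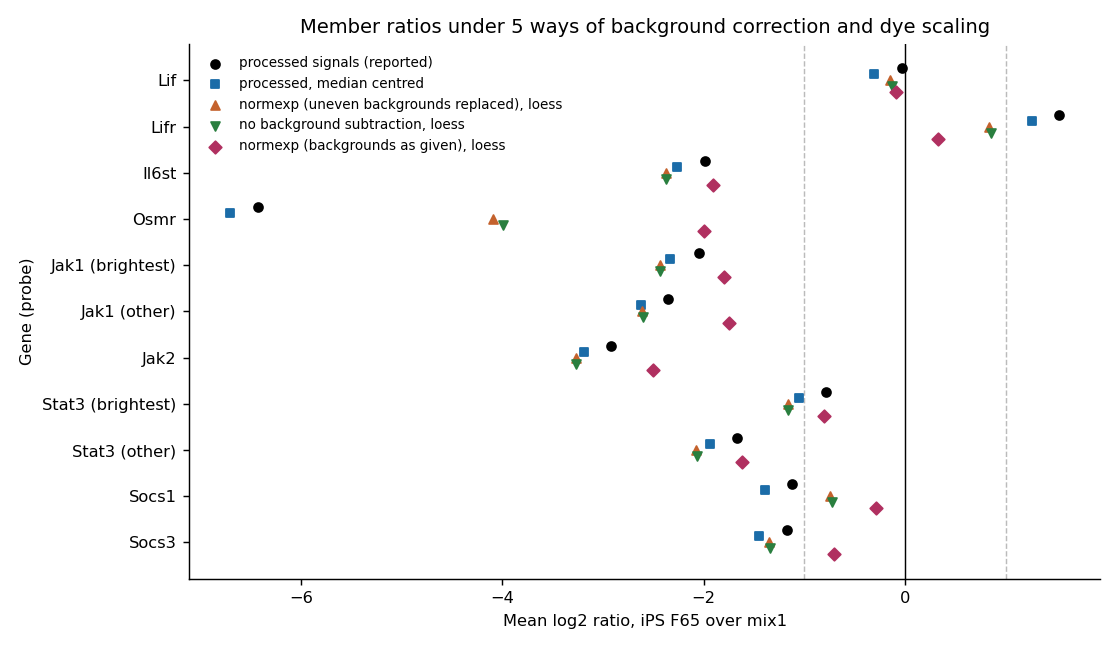
Mean log2 ratio of iPS F65 over mix1 for each tested member probe under 5 treatments of background and dye scaling, with the 2-fold limits dashed. Il6st, Osmr, both Jak1 probes, Jak2 and the dimmer Stat3 probe lie left of the lower limit in all 5 (Osmr without passing the adjusted p in 1 of them), Lifr, Socs1, Socs3 and the brighter Stat3 probe cross a limit, and Lif stays between the limits.

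Promoter sequence was looked up for the members, since SOCS genes are known STAT targets. The RefSeq table of the GRCr8 build held 7 of the 10, each with 250 bases before and 50 after the gene start. These are annotated gene starts and were not checked against transcription starts. In the entries of Il6st and Socs3 the coding sequence begins within the 50 bases after the start, so their upstream bases may not be promoter. The palindromic STAT motif TTCNNNGAA reads the same on both strands. It was in 1 of these 7 entries, that of Socs1, and in 8.87% of all 33469 entries of that length. The narrower TTCCNGGAA, a subset of the first, was in none of the 7 and in 1.27% of all. A missing match in these entries does not show that a gene lacks STAT sites. The 250 bases before the start of Socs1 are shown with the match, which begins 196 bases before the start, in capitals.
Socs1 (GRCr8 chr10:5389324-5389573, plus strand): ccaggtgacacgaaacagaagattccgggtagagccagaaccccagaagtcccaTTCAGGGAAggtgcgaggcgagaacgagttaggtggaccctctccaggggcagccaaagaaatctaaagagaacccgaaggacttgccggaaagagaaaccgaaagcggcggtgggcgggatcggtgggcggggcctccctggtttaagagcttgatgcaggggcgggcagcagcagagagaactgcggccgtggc

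The other genes of the pathway were described from 7 lists of 84 genes, of which 77 had a probe and 72 were tested. Of the 72, 9 were called higher in iPS F65 (12.5%) and 38 lower (52.8%), against 30.9% and 24.5% of all gene names. The median log2 ratio of the 72 was -1.33. Of the 38 lower, 16 were in the list of STAT3 targets known from inflammatory and stromal cells. The lists were chosen with earlier results of these data known, so these shares are a description and no test. Most cytokines and receptors that share gp130 were lower: 5 of 6 tested cytokines and 2 of 3 receptors. Clcf1, which encodes a ligand of the CNTF receptor, had a log2 ratio of -5.94 ± 0.05, and Ctf1 (cardiotrophin 1) one of -1.24 ± 0.08 (SD, n = 3 each). Il6 was at least 23.5-fold lower in iPS F65. The interleukin 11 receptor gene Il11ra1 had a log2 ratio of -5.77 ± 0.03, and the interleukin 6 receptor gene Il6r was at least 12.2-fold lower. Cntf (ciliary neurotrophic factor) was the cytokine called higher, at 1.39 ± 0.01 (SD, n = 3), a call lost with normexp or with loess alone. With normexp on the backgrounds as given, 1 cytokine and 1 receptor gene were lower, and with both channels required above background 2 cytokines and 1 receptor gene.

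Among the other JAK and STAT genes, 5 of 7 tested were lower in iPS F65 (71.4%) and 1 was higher (14.3%), against 24.5% and 30.9% of all gene names. Stat5a had a log2 ratio of -4.60 ± 0.06 and Stat2 one of -1.88 ± 0.06 (SD, n = 3 each). Stat5b and Stat6 were at least 9.79-fold and 7.29-fold lower. Stat4, named after its value was seen, was at least 4.03-fold higher in iPS F65: its signal was 207, 307 and 308 in iPS F65, against 15.6, 19.4 and 14.3 in mix1, where it was well above background on no array. Jak3 had a log2 ratio of 0.08 and was not called. The list had 2 genes lower with normexp on the backgrounds as given and 3 lower where both channels had to be above background. The call of Stat4 was lost in both, and the filter on both channels left it untested.

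The inhibitors beyond the members and the adaptors of the ERK and PI3K branches had calls in both directions, against 30.9% higher and 24.5% lower over all gene names. Of 12 inhibitors (25% higher, 25% lower), 3 were lower, namely the blood-cell phosphatase gene Ptpn6 (-4.82 ± 0.04), Socs5 (-2.39 ± 0.05) and Pias3 (-1.42 ± 0.01), and 3 were higher, Socs7 (2.25 ± 0.11) and, named after their values were seen, Socs6 (1.65 ± 0.01) and Ptpn2 (1.55 ± 0.01), all as log2 ratios with SD over 3 arrays. Their median was -0.10. Of 19 tested adaptors, 4 were lower and 4 higher (21.1% each), with a median of -0.14. The balance depended on background correction and scaling. With normexp and loess, and with loess alone, 6 adaptors were lower and 2 higher, and 4 inhibitors were lower and 3 higher. The lower ones included the adaptor gene Shc1 (-2.65 ± 0.08), the ERK1 gene Mapk3 (-1.48 ± 0.02) and Pik3r1, a regulatory subunit of PI3K (-1.46 ± 0.09). The highest was Nras, at 1.77 ± 0.02.

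Known targets of STAT3 were taken as a pair of lists, to be read against 30.9% higher and 24.5% lower over all gene names. Of 8 tested targets known from naive mouse stem cells, 3 were lower in iPS F65 (37.5%): Myc (-5.55 ± 0.02), Tbx3 (-5.37 ± 0.29) and Klf4 (-5.12 ± 0.01). Klf4, a pluripotency factor that fibroblasts also express, gave 1228, 1431 and 1436 in iPS F65, against 43009, 49699 and 50016 in mix1. The other 5 (Klf5, Gbx2, Pim1, Pim3 and Jmjd1a) had log2 ratios between -0.42 and 0.82 and were not called. Tfcp2l1 was at background in both groups on all 3 arrays, and no probe was found for Sall4, Nanog and Pramel7. Of 17 tested targets known from inflammatory and stromal cells, 16 were lower (94.1%), with a median of -3.69. Among them were the immediate-early gene Fos (-6.07 ± 0.06), the acute-phase regulator Cebpd (-5.60 ± 0.02) and the cyclin D1 gene Ccnd1 (-5.40 ± 0.01). The exception was the survival gene Mcl1, at -0.37 on its brightest probe and 1.46, called higher, on another.

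**Figure D4:**
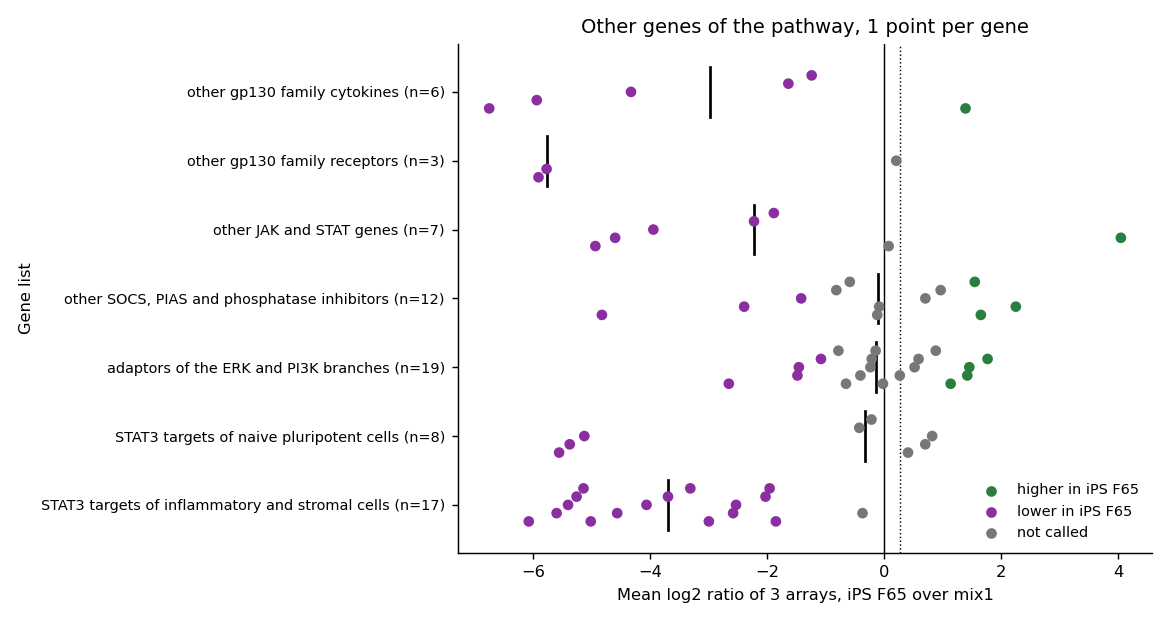
Mean log2 ratio of iPS F65 over mix1 for each tested gene of the 7 lists of other pathway genes (1 point per gene, with the list's median as a bar). The dotted line marks the median of all tested probes at 0.27. Points of genes at background in 1 channel are fitted values and no measured fold.

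Markers of fibroblasts, myeloid cells and pluripotent cells were read beside the pathway genes. The shares over all gene names were 30.9% higher and 24.5% lower. All 12 tested fibroblast markers were lower in iPS F65, with summed signals of 8807 to 11790 in iPS F65 and 1836000 to 2375000 in mix1, and 9 of the 12 were still well above background in iPS F65. Of 11 tested myeloid markers, 10 were lower, with summed signals of 4117 to 5197 in iPS F65 and 262500 to 305300 in mix1, and 6 of the 11 were well above background in iPS F65. The myeloid count lower was 6 with normexp on the backgrounds as given, and also 6 with both channels required above background. Ptprc was not called on its brightest probe but was called lower on its other probes. Of 6 tested pluripotency markers, 5 were higher in iPS F65, with summed signals of 26330 to 30570 in iPS F65 and 2416 to 2529 in mix1. Each summed signal is set mostly by the brightest probes of its list and does not describe every marker. Pou5f1 was at least 4.53-fold higher, Lin28a was not called (-0.17), and Fgf4 and Esrrb were not well above background in either group. No probe was found for Nanog, Utf1 and Zfp42. The part of bone marrow cells, fibroblasts and mouse feeder cells in the ratios of the pathway genes was not tested.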

How the data were processed

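The deposited scanner files hold intensity values per spot, made per the file headers with Agilent Feature Extraction 9.5.3.1. Its processed signals were spatially detrended, background-subtracted and dye-normalised (linear and LOWESS) within each array. The series matrix, whose log2 values the authors deposited, equalled log2 of green over red processed signal, to within 3.1e-06, and thus runs as iPS F65 over mix1. Each array held 45018 spots, of which 43379 were gene spots. Of the gene spots, 204 to 213 per array were flagged as outliers and dropped, and none was saturated. Between 57 and 61.5% of probes were well above background per channel. Ratios of the 3 arrays correlated at 0.9846 to 0.9870 over probes. The arrays came from 1 slide scanned once, and no batch test was possible.

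Here log2 of iPS F65 over mix1 was taken per spot and averaged per probe. Tested probes had the well-above-background flag on each of the 3 arrays in at least 1 dye. Mix1 is 1 control sample, so the mean was set against 0 by limma 3.58.1 in R 4.3.3 (functions lmFit and eBayes), and the spread of the control itself is missing from the test. A call needed a Benjamini-Hochberg adjusted p under 0.05 over 25801 probes together with a log2 ratio of 1 or more in size. A gene's brightest tested probe represents it. Members and lists were chosen with earlier results of these data known. From each list the rule named the 3 called genes with the largest ratios in its more frequent direction, 1 in the other, and up to 2 with the largest bound; some of these are not reported here. Lists were matched by deposited name, accession or older name through RefSeq. Alternatives changed the background correction (normexp, offset 50), the dye scaling, the filter, the choice of probe and the arrays used. The number of arrays limits the precision.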

Additional observations from a re-analysis of the deposited data

How the results depend on the processing

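Each ratio set an iPS F65 sample against mix1 on the same array, so the test used values paired within arrays. Only 1 group of samples was hybridised, against 1 common control and in 1 dye orientation. The direction of every called member probe stayed the same under all alternatives that gave a value. Il6st, Jak1, Jak2 and the dimmer Stat3 probe also kept their calls. Lif, at -0.03 and not called, was -0.10 to 0.05 with 1 array left out, the positive value being that without replicate 3. The count of member genes and of member probes called higher in iPS F65 was 0, against 1, with normexp and loess, with normexp on the backgrounds as given, with loess alone, and when both channels had to be above background, a filter that leaves Lifr untested. With normexp on the backgrounds as given, 3 member genes were lower against 6, 5 member probes against 8, and of the other pathway genes 3 were higher against 9 and 23 lower against 38. Over all probes, the count higher was 4752 with normexp and loess, 2790 with the backgrounds as given and 4751 with loess alone, against 8060, and the count lower was 2358 with the backgrounds as given and 3744 with the filter on both channels (which tests fewer probes), against 6206. Leaving out 1 array at a time gave 8003 to 8046 higher and 6130 to 6184 lower. The cause of the shifts between background settings was not tested. Socs2, and Osmr in iPS F65, are limited by signal at background.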
